A study of Homo sapiens with 14 samples.

Results

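The tetraspanin genes were followed across 7 human prostate cancer cell lines, each profiled on 2 arrays made from different passages in culture. A gene was a member when a probe set carried its symbol alone and that symbol was TSPAN with a number, or CD9, CD37, CD53, CD63, CD81, CD82 or CD151. This gave 29 probe sets for 28 genes, out of 18372 genes measured. TSPAN11 had 2 probe sets, and the one with the higher mean stood for the gene. TSPAN19, which also fits the naming rule, was not analysed here. Members were taken by name and not by a cut on measured expression. The family and its marker TSPAN8 were, however, picked with earlier results of these data known.

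PC3 and DU-145 are established lines derived from prostate cancer metastases. The PC3 background is represented by the sublines PC3-ML and PC3-N, and PC3-ML (Clone 1) and PC3-ML (Clone 3), here Clone 1 and Clone 3, each grew from a single PC3-ML cell, so each is 1 clone. Overexpression of the alpha receptor of platelet-derived growth factor, encoded by PDGFRA, defines 2 further lines, PC3-N(PDGFRα) and DU-145 (PDGFRα). The labels name neither the promoter nor an empty-vector control, so each was compared with its untransfected parent. Per the labels, PC3-ML, its clones and PC3-N(PDGFRα) are bone metastatic, whereas PC3-N and both lines of DU-145 background are not. All lines shared one medium, DMEM with fetal bovine serum and gentamicin.

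Tetraspanins are small proteins that cross the membrane several times, with a large outer loop held by disulfide bonds at a conserved CCG motif. They gather partner proteins such as integrins, proteases and growth factor receptors into patches of the membrane, and several are abundant in extracellular vesicles. In prostate cancer the family is best known for CD82, also called KAI1, which was identified as a suppressor of metastasis, while CD151 and TSPAN8 are linked to integrins and cell movement. The TspanC8 members, named for the cysteines of their outer loop, escort the protease ADAM10 to the cell surface.

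The promoters of TSPAN8 and TSPAN15 are shown because these members had the widest spans between lines and differed in opposite directions between Clone 1 and its parent PC3-ML. The sequences are RefSeq's, of build GRCh38.p14, and cover the 250 bases before the annotated transcription start, 5′ to 3′ on the gene's strand. Capitals mark matches to the GC box GGGCGG or the CCAAT box CCAAT on either strand.
TSPAN8 (chr12:71158000-71158249, minus strand): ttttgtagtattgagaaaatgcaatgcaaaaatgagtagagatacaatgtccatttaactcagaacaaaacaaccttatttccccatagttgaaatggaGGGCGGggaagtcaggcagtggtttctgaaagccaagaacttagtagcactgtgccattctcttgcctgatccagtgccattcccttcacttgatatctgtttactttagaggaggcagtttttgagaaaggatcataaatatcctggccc
TSPAN15 (chr10:69451215-69451464, plus strand): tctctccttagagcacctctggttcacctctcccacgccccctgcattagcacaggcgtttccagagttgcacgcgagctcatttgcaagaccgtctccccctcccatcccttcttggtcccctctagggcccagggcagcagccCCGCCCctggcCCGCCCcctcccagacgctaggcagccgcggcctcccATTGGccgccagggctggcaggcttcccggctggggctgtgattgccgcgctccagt
The TSPAN8 window held 1 GC box, starting 151 bases before the start, and 1 CpG, with a GC content of 40.8%. The TSPAN15 window held GC boxes at -105 and -94 and a CCAAT box at -57, all on the opposite strand, with 14 CpGs and a GC content of 67.6%. Across 27305 promoters of this length the median GC content was 58.0% with 11 CpGs, so TSPAN8 lay below it and TSPAN15 above it. The table held 20 of the 28 members, and their median was 63.6% with 13 CpGs. A GC box occurred in 12 of the 20 (60%, against 42.3% of all promoters) and a CCAAT box in 6 (30%, against 33%). The TATA box TATAAA occurred in none of the 20 (11.1% of all promoters) and the AP-1 site TGANTCA in 2 (10%, against 6.6%), all counted on both strands. Such a match describes the letters and shows no binding.

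The deposited values were RMA intensities on a linear scale, from 18.5 to 8654 with array medians of 29.9 to 31.6, and were converted to log2 before any test. Low intensities approach a floor, and folds that involve them are underestimates. Across genes, r between both passages was 0.989 to 0.996, and between arrays of different backgrounds 0.926 to 0.948. The mean PDGFRA intensity was 106.4 in PC3-N and 833.9 with overexpression, and 26.86 in DU-145 and 110.9 with overexpression. Both overexpressing lines thus exceeded their parents, but DU-145 (PDGFRα) reached only about the level of PC3-N without overexpression. Of 8 leukocyte markers, 6 or 7 lay below the array median in every line, with PTPRC near 20 and summed intensities of 200 to 215. SPI1 exceeded the array median on all arrays, at 39.9 to 45.86. Fibroblast markers summed to 147 to 157 with DCN or LUM lowest, at 19.9 to 20.6. Among them COL1A1, at 44 to 51.79, and COL1A2 exceeded the array median on all arrays. The endothelial markers CDH5, VWF and TEK were below the array median in every line. PECAM1 was below it in both DU-145 lines but above it in the 5 PC3 lines, with means of 44.76 to 90.26. Epithelial markers summed to 1205 to 2994, and EPCAM, KRT8, KRT18 and KRT19 exceeded the array median on all arrays. CDH1 was the lowest epithelial marker in every line. Its means in the PC3 lines were 25.9 to 31.7, near the array median or below it. Both DU-145 lines had higher CDH1 means, 53.4 with overexpression and 166 without. The androgen-driven genes KLK2 and KLK3 were near the floor, at 25.7 to 32.21.

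Of the 28 tetraspanins, 15 exceeded the array median on all 14 arrays. CD63, the tetraspanin of late endosomes and exosomes, had intensities from 2949 to 3831 and line means that spanned 0.30 on the log2 scale. CD53, TSPAN7, TSPAN10 and TSPAN16 were below the array median on all arrays, and the other 9 members crossed it. The lowest and highest line mean differed by at least 1 log2 unit for 7 members (25%), against 11.8% of all genes, and the median span was 0.40 against 0.31. Those 7 were TSPAN8 with 4.25, TSPAN15 with 1.55, TSPAN1 with 1.51, CD151 with 1.14, TSPAN5 with 1.11, CD81 with 1.05 and TSPAN6 with 1.02. The members just under this mark were TSPAN13 with 0.90 and TSPAN12 with 0.84.

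**Figure D1:**
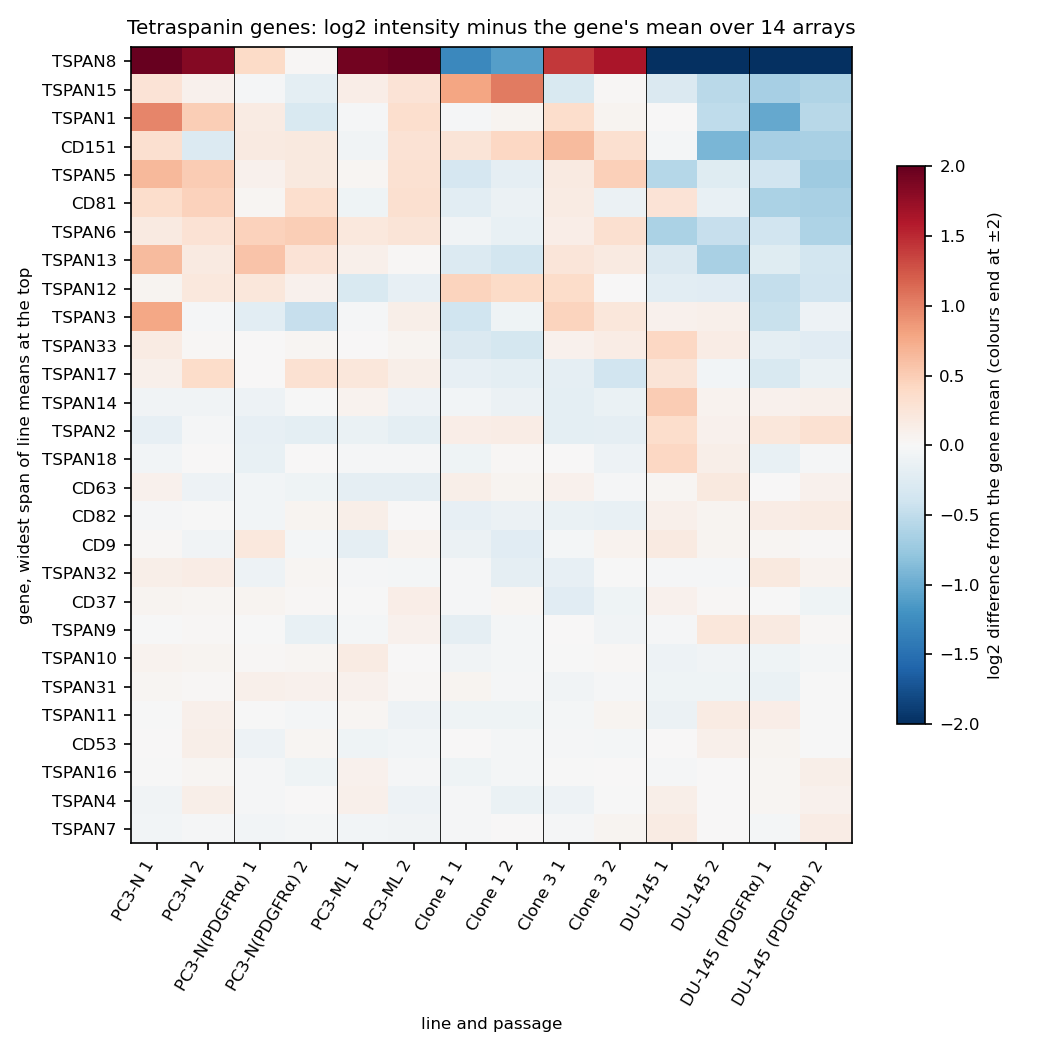
Colours show the log2 intensity of each of the 28 tetraspanin genes (rows, widest span of line means at the top) minus its own mean over 14 arrays, with line and passage number along the horizontal axis. TSPAN8 runs past both ends of the colour scale at ±2, while most rows from TSPAN14 down stay pale.

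Some difference among the 7 lines was detected for 13 of the 28 members by limma's F test (46.4%, against 38% of all genes). By role, the test called CD81, CD82 and CD151 among the 5 epithelial CD tetraspanins. It called TSPAN5, TSPAN15, TSPAN17 and TSPAN33 among the 6 TspanC8 members, and all 3 of TSPAN1, TSPAN8 and TSPAN13, a group of carcinoma-associated members. None of the leukocyte members CD37, CD53 and TSPAN32 was called. TSPAN2, TSPAN6 and TSPAN12 made up the rest. The 2 arrays of a line are passages of one line, so this test and each comparison of a pair of lines measure a difference against the spread between passages.

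TSPAN8, a cell-surface tetraspanin known from gastrointestinal carcinomas and from vesicles that act on endothelium, varied most. Its intensities on passages 1 and 2 were 475.8 and 491.9 in PC3-ML, 505.4 and 444.8 in PC3-N, and 332.3 and 384.7 in Clone 3. PC3-N(PDGFRα) gave 162.6 and 126.7, and Clone 1 gave 50.85 and 58.08. DU-145 (PDGFRα) gave 31.1 and 25.75, and DU-145 gave 22.62 and 28.58. The signal was thus high in 3 PC3 lines, intermediate in PC3-N(PDGFRα), low in Clone 1 and about at the array median or under it in both DU-145 lines. The line means ranged from 8.92 ± 0.03 in PC3-ML to 4.67 ± 0.24 in DU-145 (log2, SD, n = 2 each), a 19-fold span that ranked 25 among the 18372 genes. PC3-ML and PC3-N overlapped, as did both DU-145 lines, and no array of Clone 3, PC3-N(PDGFRα) or Clone 1 overlapped with one of another line.

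**Figure D2:**
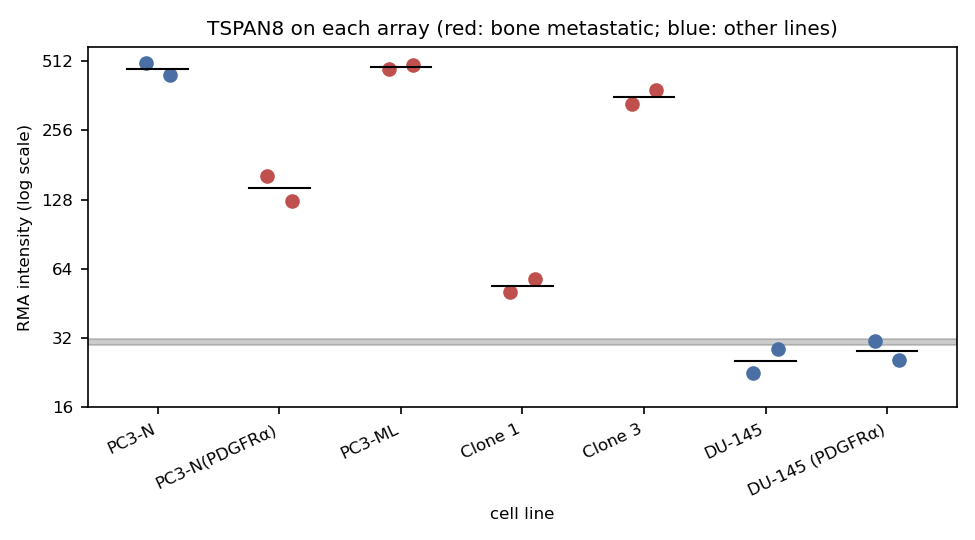
Points show the RMA intensity of TSPAN8 on each array (log scale) by cell line, with a bar at the mean of the line's 2 log2 values; red marks bone-metastatic lines, blue the others, and the grey band the range of the array medians. PC3-ML and PC3-N sit together near the top, Clone 1 lies under the other PC3 lines at 50.85 and 58.08, and the DU-145 lines lie at or below the grey band.

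Among the epithelial CD tetraspanins, CD151, a partner of laminin-binding integrins, had intensities of 140.3 and 113.1 in Clone 3, 107.4 and 120.3 in Clone 1, and 102 and 103.4 in PC3-N(PDGFRα). PC3-ML gave 85.94 and 109.9 and PC3-N 112.7 and 74.91, while DU-145 gave 87.35 and 47.8 and DU-145 (PDGFRα) 56.85 and 57.82. The low signals were thus in the DU-145 lines, but passage 1 of DU-145 reached into the PC3 range. CD81, a component of the B-cell co-receptor that epithelia also express widely, was highest in PC3-N at 185.6 and 201.3 and lowest in DU-145 (PDGFRα) at 93.95 and 92.31. Its values were 149.9 and 183.7 in PC3-N(PDGFRα), 137.1 and 181.7 in PC3-ML, 163.3 and 134.8 in Clone 3, 174.3 and 130.7 in DU-145, and 126.6 and 134.4 in Clone 1. Both arrays of PC3-N were above all others and both of DU-145 (PDGFRα) below all others, and the lines between them overlapped. CD9, a tetraspanin of cell fusion and adhesion, ranged over 137 to 185.3 with a median of 163. CD82 lay just above the array median everywhere, at 30.4 to 38.38, a level at which differences are compressed.

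Among the TspanC8 members, TSPAN15 had its highest signal in Clone 1, at 296.9 and 352.2. PC3-N followed with 207.9 and 182.3, PC3-ML with 188.1 and 207, PC3-N(PDGFRα) with 169.3 and 150.3, and Clone 3 with 137.7 and 173.4. DU-145 gave 140.5 and 117.7 and DU-145 (PDGFRα) 107.7 and 112.7. Both arrays of Clone 1 thus lay above every array of the other lines, and both of DU-145 (PDGFRα) below every other. TSPAN5 was highest in PC3-N at 409 and 371.1, with 298.2 and 365.8 in Clone 3, 268 and 323.9 in PC3-ML and 277.7 and 300.9 in PC3-N(PDGFRα). It gave 208 and 233.1 in Clone 1, 177.5 and 222.2 in DU-145 and 200.9 and 161.4 in DU-145 (PDGFRα), so Clone 1 overlapped with DU-145, lay above DU-145 (PDGFRα) and lay below every array of the other PC3 lines. TSPAN17 and TSPAN33 had smaller spans of 0.51 and 0.60, TSPAN10 was below the array median on all arrays, and TSPAN14 had a median of 25.3 and a highest value of 37.45, in passage 1 of DU-145.

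**Figure D3:**
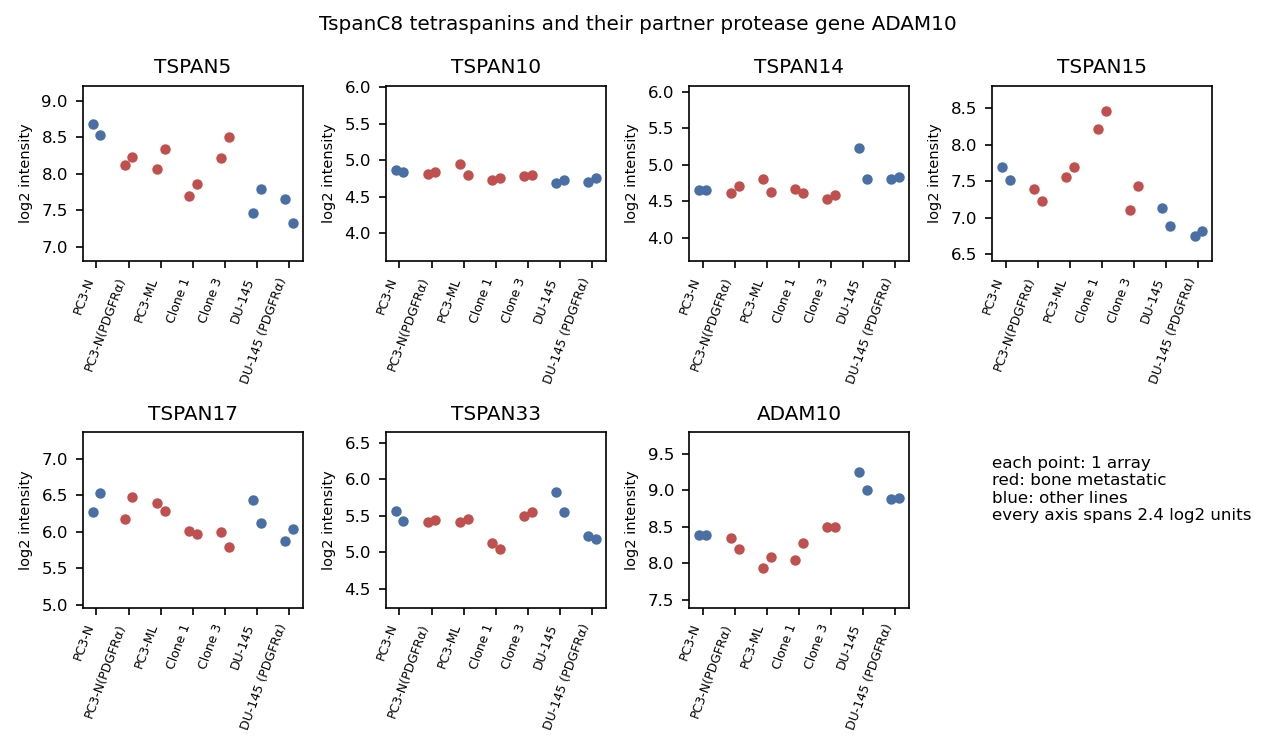
Each panel shows log2 intensity by cell line for a TspanC8 tetraspanin or for ADAM10, 1 point per array, with axes of equal length (2.4 log2 units) and different starting levels; red marks bone-metastatic lines and blue the others. TSPAN15 peaks in Clone 1, and ADAM10 is highest in both DU-145 lines, where TSPAN15 and TSPAN5 have their lowest line means.

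Of the remaining members with wide spans, TSPAN1, a carcinoma-associated tetraspanin, gave 143.9 and 103.1 in PC3-N, 93.48 and 76.42 in Clone 3, 72.64 and 92.39 in PC3-ML and 71.77 and 76.55 in Clone 1. It gave 82.47 and 59.13 in PC3-N(PDGFRα), 73.42 and 51.47 in DU-145 and 36.32 and 50.03 in DU-145 (PDGFRα). Both arrays of PC3-N were above all others and both of DU-145 (PDGFRα) below all others, but passages differed enough for the lines between them to overlap. TSPAN6, which has been reported to act on vesicle formation, gave 622.9 and 636.2 in PC3-N(PDGFRα), 516.9 and 550.8 in PC3-N, 521.8 and 542 in PC3-ML and 496.9 and 566.1 in Clone 3. It gave 430.3 and 411.2 in Clone 1, 292.4 and 328.6 in DU-145 and 346.5 and 293.6 in DU-145 (PDGFRα), which set the DU-145 lines below every PC3 array. TSPAN12, a co-receptor of the norrin receptor frizzled-4, ranged from 99.2 to 187.4 and TSPAN13 from 52.1 to 126.5. TSPAN3 ranged from 131 to 306.7, and its top value came from 1 passage of PC3-N whose other passage gave 177.4.

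PC3-ML and PC3-N, sublines with opposite bone-metastasis labels, did not differ in any tetraspanin at the adjusted threshold (limma, adjusted p under 0.05), where 0.348% of all genes passed (0.218% higher and 0.131% lower). At an unadjusted p under 0.05 there were 5 members, with lower means in PC3-ML: TSPAN1 (-0.57), TSPAN5 (-0.40), TSPAN12 (-0.37), TSPAN13 (-0.35) and CD63 (-0.17), with adjusted p values of 0.23 to 0.472. Over all genes 10.5% reached that unadjusted level. TSPAN8 differed by 0.03 with a 95% interval of -0.32 to 0.37, which leaves out a difference as large as those between PC3-ML and Clone 1.

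PDGFRα overexpression in PC3-N went with a lower TSPAN8 signal, the single tetraspanin called among 28 (3.57%, against 2.2% of all genes; 1.52% higher and 0.68% lower). TSPAN8 fell by 1.72 on the log2 scale (SE 0.15, 95% interval -2.07 to -1.38, limma adjusted p = 8.6e-04), a 3.3-fold difference, and both passages of PC3-N(PDGFRα) were below both of PC3-N. The median difference of the family was -0.06. Of 27 members not called, TSPAN1 (-0.80), TSPAN3 (-0.71), TSPAN5 (-0.43) and TSPAN6 (0.24) reached an unadjusted p under 0.05, as did 13.7% of all genes. The TSPAN3 value rests on passage 1 of PC3-N, since without the other passage the difference was -1.11 with an adjusted p of 0.0172. Among 20 genes of tetraspanin partners, FZD4, the receptor TSPAN12 attends, fell by 0.97 (adjusted p = 0.00682) and CLDN1, a tight junction claudin, fell by 0.95 (adjusted p = 0.0467).

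In DU-145, PDGFRα overexpression changed no tetraspanin at the threshold by limma (0.31% of all genes passed; 0.0653% higher and 0.245% lower), and 4 members had an unadjusted p under 0.05, a level that 13% of all genes reached. These were CD81 (-0.70), TSPAN33 (-0.49, adjusted p = 0.0589), TSPAN18 (-0.35) and TSPAN17 (-0.32). Passage 1 of DU-145 was the higher one for each, and without passage 2 the test called CD81 (-0.90), TSPAN33 (-0.63), TSPAN18 (-0.50) and TSPAN14 (-0.41), whereas without passage 1 it called none. TSPAN8 differed by 0.15 (adjusted p = 0.743) between levels near the floor. The TSPAN8 change with overexpression in PC3-N minus that in DU-145 was -1.88 (SE 0.22, 95% interval -2.37 to -1.39, limma adjusted p = 0.00743). TSPAN8 was the single tetraspanin called here (0.533% of all genes, 0.419% higher and 0.114% lower). Since TSPAN8 started near the floor in DU-145, a fall there could not have been measured. PDGFRA also reached only 110.9 in DU-145 (PDGFRα), against 833.9 in PC3-N(PDGFRα). No conclusion about a difference between the backgrounds is therefore drawn.

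Clone 1 differed from its parent PC3-ML in 8 tetraspanins, 4 higher and 4 lower (28.6%, against 13.8% of all genes; 9.01% higher and 4.77% lower). TSPAN8 fell by 3.15 (SE 0.15, 95% interval -3.50 to -2.81, adjusted p = 1.1e-05), an 8.9-fold difference. TSPAN15 rose by 0.71 (SE 0.14, adjusted p = 0.00673) and TSPAN12 by 0.65 (SE 0.11, adjusted p = 0.00329). The other calls were smaller: TSPAN2 (0.30), an oligodendrocyte-enriched member, and CD63 (0.26) rose, while TSPAN33 (-0.35), TSPAN6 (-0.34) and CD82 (-0.20) fell. Their limma adjusted p values were 0.0238 to 0.0481. TSPAN2 lay near the array median, at 27.1 in PC3-ML and 33.24 in Clone 1. TSPAN8 and TSPAN12 were called with any 1 of the 14 arrays left out. TSPAN15 lost its call without passage 1 of PC3-ML (adjusted p = 0.0627) or passage 2 of Clone 1 (0.0654), and the count of called members fell to between 2 and 7. The smaller calls were less stable: of the 14 fits that left out 1 array, TSPAN33 was called in 10, TSPAN6 in 8, CD63 and TSPAN2 in 4 each and CD82 in 3.

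Genes of other classes also differed in Clone 1. Of 20 partner genes, 4 rose and 2 fell: EPCAM, an adhesion protein reported in complexes with claudin-7 and TSPAN8, rose by 1.81 (adjusted p = 4.3e-05) and CLDN1 by 1.53 (0.00109), while FZD4 fell by 0.78 (0.00354) and EGFR rose by 0.48 (0.0337). EPCAM gave 1747 and 1522 in Clone 1 against 450 and 483.5 in PC3-ML. CLDN7, the claudin-7 gene, was below the array median in both, with means of 25.63 in Clone 1 and 25.7 in PC3-ML. The epithelial keratins KRT18 (2.20) and KRT8 (0.92) rose as well, the summed epithelial markers were 2961 against 1205, and PDGFRA fell by 2.15. TM4SF1, of the L6 family that resembles tetraspanins in topology, fell by 1.24 (adjusted p = 0.00363), the single call among 5 measured L6 genes. PECAM1 rose by 1.03 (adjusted p = 0.0176) while the other 3 endothelial markers stayed below the array median. The part of these differences in the tetraspanin values was not tested.

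Clone 3 was closer to PC3-ML in its tetraspanins: 1 of 28 members was called, higher (3.57%, against 8.1% of all genes; 5.2% higher and 2.9% lower). TSPAN12 rose by 0.43 (SE 0.11, adjusted p = 0.04), with 176.9 and 139.1 in Clone 3 against 111.2 and 122.4 in PC3-ML. The call was lost without 9 of the 14 arrays, among them passage 1 of PC3-ML (adjusted p = 0.26) and passage 1 of Clone 3 (adjusted p = 0.231). TSPAN8 differed by -0.44 (95% interval -0.78 to -0.09), with an unadjusted p of 0.0185 and an adjusted p of 0.129. Among the partners, EGFR (0.52), ADAM10 (0.49), CD46 (0.37) and CD44 (0.30) rose, as did the vesicle genes SDCBP (0.73), which encodes syntenin, and RAB27B (0.67), a GTPase of vesicle docking.

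**Figure D4:**
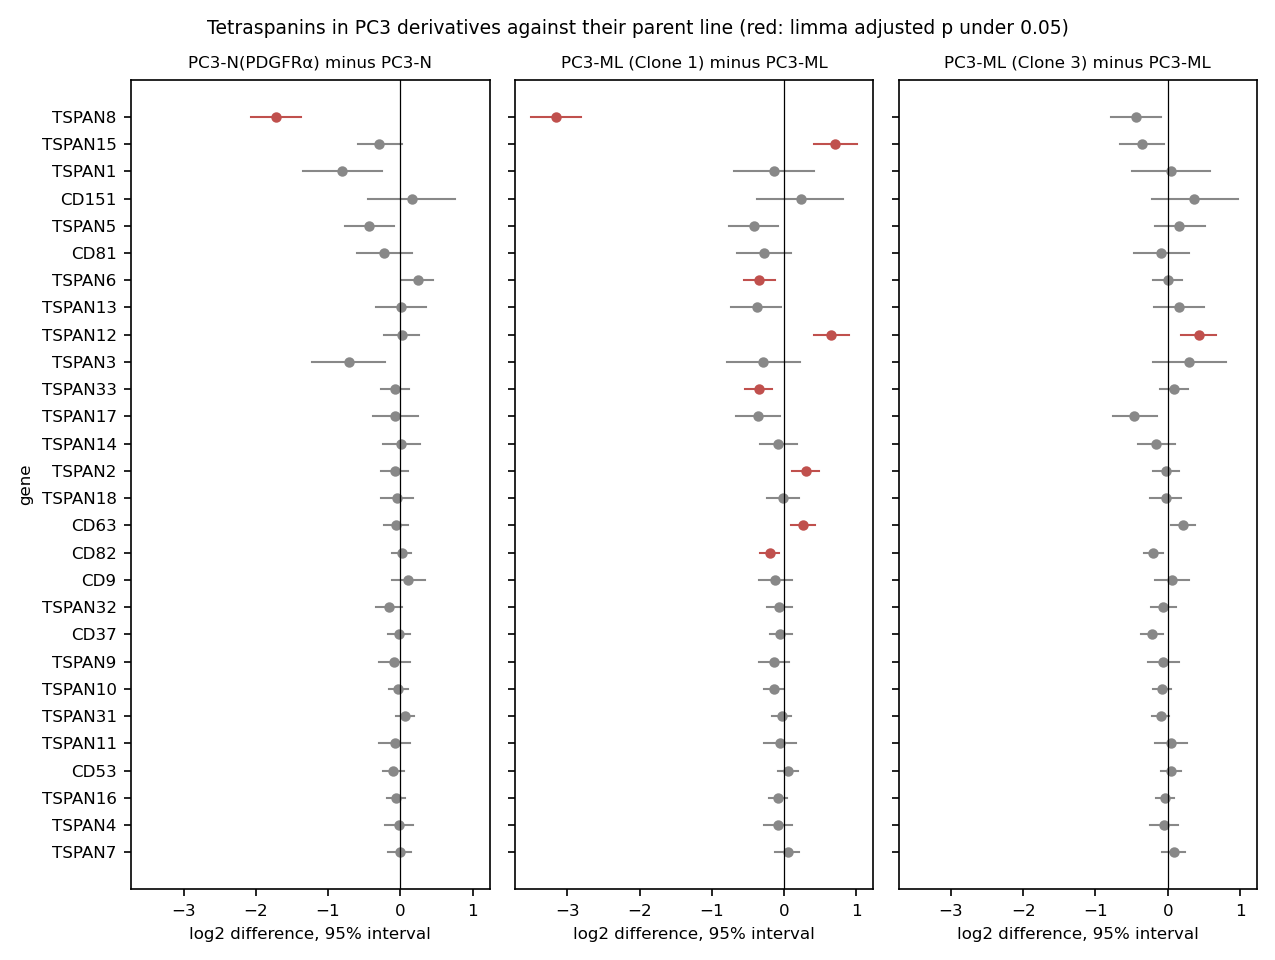
Points give the log2 difference of each tetraspanin and bars its 95% interval, in 3 panels for PC3-N(PDGFRα) against PC3-N, Clone 1 against PC3-ML and Clone 3 against PC3-ML; red marks limma adjusted p under 0.05. TSPAN8 lies farthest to the left in the first 2 panels (-1.72 and -3.15), and in the third its interval lies nearer to 0 (-0.78 to -0.09).

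The clones differed directly from each other in 6 tetraspanins, 2 higher and 4 lower in Clone 1 (21.4%, against 10.5% of all genes; 5.85% higher and 4.63% lower). TSPAN8 was lower in Clone 1 by 2.72 on the log2 scale (SE 0.15, 6.58-fold, adjusted p = 1.5e-05) and TSPAN15 higher by 1.07 (SE 0.14, 2.09-fold, adjusted p = 0.00104). TSPAN5 (-0.58), TSPAN33 (-0.43) and TSPAN6 (-0.33) were lower and TSPAN2 (0.32), near the array median, was higher. Their limma adjusted p values were 0.00997 to 0.0497. Of the 6 TspanC8 members, 3 were thus called, TSPAN15 in the direction opposite to TSPAN5 and TSPAN33. ADAM10 was not called in this comparison. SDCBP (-1.06), RAB27B (-0.94), CD44 (-0.52), FZD4 (-0.69) and TM4SF1 (-1.23) were lower in Clone 1, and EPCAM (1.85) and CLDN1 (0.90) higher. TSPAN8 and TSPAN15 kept their calls without any 1 array, and the other 4 lost theirs without at least 1 array of a clone. This comparison and those with PC3-ML share arrays.

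The 5 PC3 lines were compared with the 2 DU-145 lines on line means, so that the spread is between lines, although lines of one background are related and not independent. CD151 was higher in the PC3 lines by 0.79 (SE 0.13, limma adjusted p = 0.00889) and TSPAN6 by 0.74 (SE 0.14, adjusted p = 0.0151), and TSPAN14, near the floor, was lower by 0.27 on the log2 scale (adjusted p = 0.0332). These were the 3 members called (10.7%, against 17.6% of all genes; 9.6% higher and 8.02% lower). TSPAN8 had the widest difference, 3.10 with an SE of 0.90, but its PC3 line means ran from 5.76 to 8.92 and the adjusted p was 0.0607. Its exact two-sided permutation p over the 7 line means was 0.0476, the smallest that 21 splits allow, and CD151, TSPAN1, TSPAN2, TSPAN5, TSPAN6, TSPAN7, TSPAN9, TSPAN14 and TSPAN31 reached the same value. Some of these differences were small, as for TSPAN9 (-0.14), TSPAN31 (0.10) and TSPAN7 (-0.09), the last below the array median on all arrays. The permutation was run for the members alone, so no share of all genes stands beside it. It is thus no result about the family. By limma, 14 of the 28 members and 31.3% of all genes had an unadjusted p under 0.05. Of the 7 fits that left out 1 line, TSPAN8 was called in 1, the fit without Clone 1, with a difference of 3.62 (limma adjusted p = 0.00815). Clone 1 had the lowest PC3 value, so leaving it out narrows the spread by itself, and no conclusion is drawn from that fit. TSPAN6 and TSPAN8 were higher on all 10 PC3 arrays than on all 4 DU-145 arrays (10.1% of all genes), and no member was lower on all of them (7.41% of all genes). CD151 lost its call without passage 2 of DU-145 (adjusted p = 0.091) or without DU-145 (PDGFRα) (0.0879), TSPAN6 without either DU-145 line (0.0914 and 0.0997), and TSPAN14 without any of 5 lines (0.168 without DU-145).

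**Figure D5:**
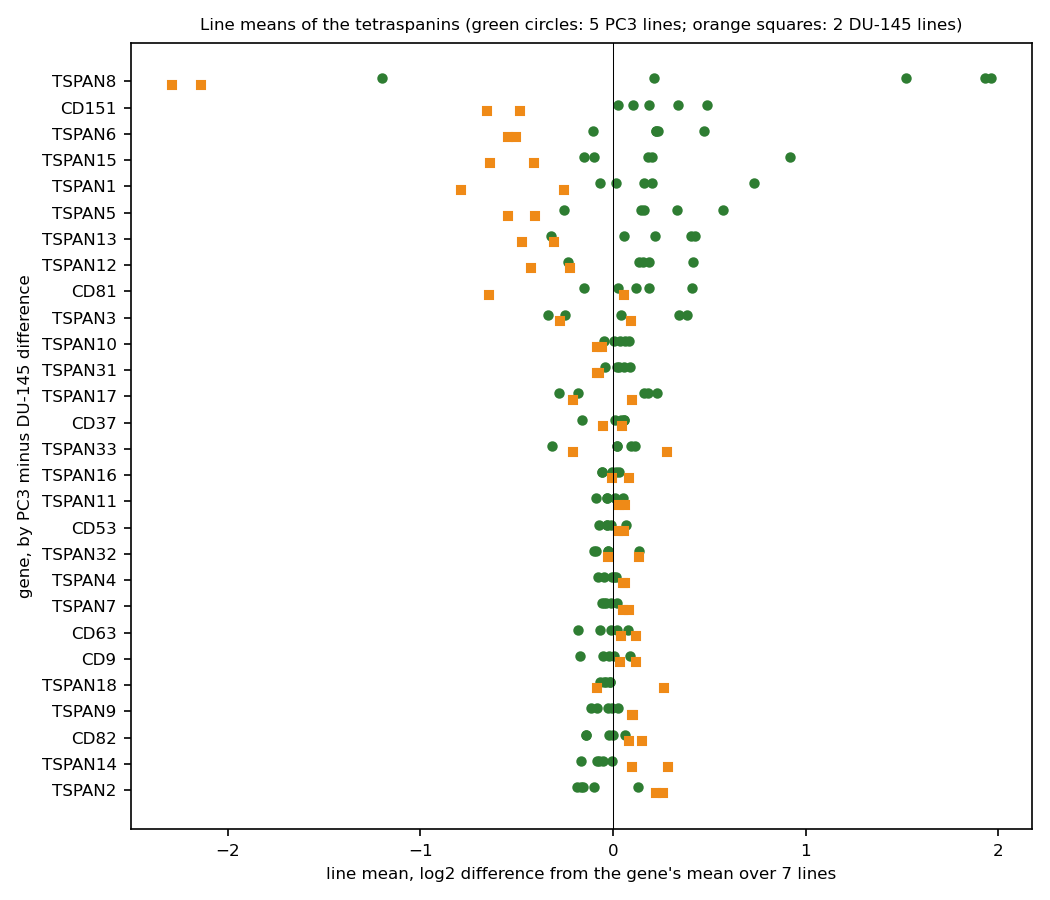
Points give each line mean of the 28 tetraspanins as a log2 difference from the gene's mean over 7 lines, ordered by the PC3 minus DU-145 difference; green circles are the 5 PC3 lines and orange squares the 2 DU-145 lines. For TSPAN8 the PC3 line means spread over more than 3 log2 units, while for CD151 and TSPAN6 they lie close together and above both DU-145 lines.

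Partners of these members differed between the backgrounds in both directions, with 4 of 20 higher and 5 lower in the PC3 lines. ITGA6, a laminin-binding integrin chain that associates with CD151, was higher by 0.83 (adjusted p = 0.0206), MET by 0.87 (0.0105) and FZD4 by 1.18 (0.0446), while ITGB1 was lower by 0.76 (0.0054). ADAM10, the protease of the TspanC8 members, was lower by 0.74 (adjusted p = 0.0151), with line means of 257.5 to 361.3 in the PC3 lines and 473.5 and 560.8 in the DU-145 lines. Of the TspanC8 members TSPAN14 alone was called, also lower, while TSPAN15 (0.74) and TSPAN5 (0.66) had higher means in the PC3 lines without passing the adjusted test. Among 5 vesicle genes RAB27B was higher by 2.35 (adjusted p = 0.00182) and its paralog RAB27A lower by 0.70 (0.0221). Among all 7 lines, the F test called 38% of all genes. It called 17 of the 20 partners, 3 of the 5 vesicle genes and 1 of the 5 L6 genes. The lists were chosen with earlier results known, so these counts are no result about the classes. The test called 0 of 4 family members named otherwise (UPK1A, UPK1B, PRPH2 and ROM1), with 1 at an unadjusted p under 0.05. Those 4 summed to 95.9 to 102 in every line, and UPK1A, UPK1B and PRPH2 were below the array median on all arrays.

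By the bone-metastasis label, which the series title asks about, no tetraspanin passed the adjusted test and none was split on all arrays. Over 4 bone-metastatic and 3 other line means limma called 0 of 28 members and 0 of 18372 genes (0% of all genes), with 4 members and 12.2% of all genes at an unadjusted p under 0.05. TSPAN8 had means of 7.58 and 6.13, a difference of 1.46 with an SE of 1.27 (adjusted p = 0.612), and both groups held high and low lines. On line means alone, 4 members did not overlap. The share of all genes that did so was not counted, so this is no result about the family. CD151 had 6.60 to 6.98 against 5.84 to 6.52, a difference of 0.65, and CD53, below the array median throughout, had 4.56 to 4.62 against 4.66 to 4.70, a difference of -0.09. Both had an exact two-sided permutation p of 0.0286, the smallest that 35 splits allow. TSPAN4 and TSPAN11, both near the array median, each differed by -0.08 (exact permutation p = 0.0571). For CD151, passage 1 of PC3-N, at 112.7, was above 5 of the 8 bone-metastatic arrays, so the arrays overlapped. No member was higher on all 8 bone-metastatic arrays than on all 6 others (0.8% of all genes) or lower (0.305%). All 4 bone-metastatic lines are of PC3 background and 2 of the 3 others are DU-145, so label and background are largely tied. Without PC3-N they cannot be told apart, and CD151 and TSPAN6 were then called.

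Some tetraspanin genes are neighbours on chromosome 11. In RefSeq gene order CD81 lies next to TSPAN32, and CD82 next to TSPAN18, with 0 protein-coding genes between, and 1 such gene separates CD151 and TSPAN4. CD81 spanned 1.05 log2 units over the line means where TSPAN32 spanned 0.23. CD151 spanned 1.14 where TSPAN4, whose protein marks migrasomes, spanned 0.14. CD82 and TSPAN18 spanned 0.30 and 0.35. TSPAN32, TSPAN4 and TSPAN18 all lay near the array median or below it, where differences are compressed.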

How the data were processed

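The authors deposited RMA intensities for 28829 probe sets on 14 single-colour arrays, per the submitters' processing notes, which give no version or genome build. RNA was column-purified and biotin-labelled, per the labels' protocols. The intensities were converted to log2 with no pseudocount. Of the probe sets, 19291 carried 1 gene symbol, 1735 several and 7803 none. The identifiers of 19260 matched RefSeq (GRCh38.p14), and of several probe sets per gene the one with the highest mean was kept, leaving 18372 genes with no filter on low intensity.

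A mean per line was fitted to the 14 arrays with limma 3.58.1 in R 4.3.3 (7 residual degrees of freedom). Both comparisons of groups of lines were fitted to the 7 line means (5 residual degrees of freedom), with an exact permutation test for single genes. Tests were two-sided, and a gene was called at a Benjamini-Hochberg adjusted p under 0.05 over all genes. In all 10 comparisons were made. The number of arrays limits the precision. The fits were tested on simulated data.

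TSPAN8 was given on every array, members with a span of at least 1 by line, up to 8 called members per direction and up to 4 called genes of each other list by size of change. Genes beyond this rule were named after their values were seen. Members and lists were chosen with earlier results of these data known. Arrays with the same passage number did not deviate together, so no pairing was used. Alternatives were quantile normalization, a filter on dim probe sets, the mean of all probe sets, a trended prior, the passage number as a block, the 14 arrays as units, and leaving out each array or line.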

Additional observations from a re-analysis of the deposited data

Results flagged for a closer look

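For TSPAN8, the change with PDGFRα overexpression in PC3-N minus that in DU-145 was -1.88 log2 units (limma adjusted p = 0.00743). The DU-145 levels were near the floor, where a fall could not have been measured. Within groups of 4 or 5 lines, a line mean stood apart from the others in 4 of 56 groups tested, where chance alone gives about 1 in 20. The 4 bone-metastatic lines are among the 5 PC3 lines, so the groups overlap and TSPAN2 in Clone 1 counts in both. The share over all genes was not counted. TSPAN2, near the array median, was at 5.05 (log2) in Clone 1. The other bone-metastatic lines were at 4.73 to 4.76 and the other PC3 lines at 4.73 to 4.82. TSPAN33 was at 5.09 in Clone 1, below 5.43 to 5.52 in the other PC3 lines. CD37, a leukocyte tetraspanin near the array median, was at 4.83 in Clone 3, below 5.00 to 5.05 in the other PC3 lines.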

How the results depend on the processing

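With each array left out in turn, the number of tetraspanins called was 0 to 0 for PC3-ML against PC3-N, 1 to 2 for PDGFRα in PC3-N, 0 to 4 for PDGFRα in DU-145, 1 to 2 for the difference of these effects, 2 to 7 for Clone 1 against PC3-ML, 0 to 1 for Clone 3 against PC3-ML, 2 to 7 between the clones, 9 to 15 for any difference among lines, 2 to 4 between the backgrounds and 0 to 0 for the bone label. The filter on dim probe sets, which left out 13 members, gave 2 for PDGFRα in PC3-N (TSPAN1 added), 2 for Clone 3 (TSPAN17 added) and 5 between the backgrounds. Quantile normalization gave 1 for PDGFRα in DU-145 (TSPAN33) and 0 for Clone 3. The trended prior gave 0 for Clone 3 and 8 between the backgrounds. Same-numbered passages of 21 pairs of lines deviated together at correlations of -0.20 to 0.24 (median 0.04), so the numbers mark no pairs. With the replicate number as a block the count was 5 for Clone 1 and 0 for Clone 3. For Clone 1, CD63, CD82, TSPAN2 and TSPAN6 were lost at limma adjusted p of 0.0501 to 0.0632 and TSPAN13 was added. The block gave 13 between the backgrounds and 9 for the bone label. Both of these fits also take the 14 arrays as units, which without the block gave 14 and 8 against the spread between passages. The share of all genes called is not given for the fits of this section, so their counts are no result about the family. Between the backgrounds, 1 member was called without the line DU-145 and 7 without Clone 1; for the bone label, 2 without PC3-N. The TSPAN8 differences that were not called ran from -0.06 (without passage 2 of PC3-N) to 0.12 for PC3-ML against PC3-N, and from -0.01 (without passage 1 of DU-145) to 0.32 for DU-145 (PDGFRα) against DU-145, with arrays left out in turn. Beyond those given beside the results, the cause of these changes was not tested. The calls of TSPAN8 in PC3-N(PDGFRα), in Clone 1 and between the clones held in all alternatives run, and 13 of 28 members lay too low for the dim filter.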
